A study of Mus musculus with 2 samples.

Results

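The 36 genes described here encode the proteins that take glucose into the cell, break it down to pyruvate and lactate, export the lactate, hold back the entry of pyruvate into the mitochondrion, and store or release glycogen. They were taken as a fixed list of gene names, which was chosen with earlier results of these data known. A spot was assigned to a gene when it was not a control spot and the array named it by a RefSeq transcript of that gene. All 36 genes had such a probe, with 53 probes and 62 spots in all, among 20657 named genes and 59305 non-control spots. Of the 36 genes, 35 were well above background on both arrays, a mark set by the scanner software, and Pygl carried it on the A-CEBP array only.

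RNA came from ATDC5, a mouse chondrogenic cell line, in the form of 2 stable lines that were made to carry a doxycycline-inducible transgene. The control line expressed GFP, and the other line expressed A-CEBP, a dominant-negative protein that binds C/EBP transcription factors and blocks their contact with DNA. Both lines were given doxycycline at 2 µg/mL for 2 days and differentiated in insulin, transferrin and selenite (ITS) for 3 weeks, so the control had received the drug and the differentiation supplement as well. Each group was 1 sample on 1 array, so differences between the lines, the cultures and the transgenes cannot be told apart, no spread between cultures exists and no p-value was computed. The sources used here do not say whether a stable line was a single clone.

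In glycolysis, glucose is phosphorylated and split, and its fragments are oxidised to pyruvate with a net gain of ATP that needs no oxygen. Lactate dehydrogenase turns pyruvate into lactate, which leaves the cell through monocarboxylate transporters, whereas the pyruvate dehydrogenase complex commits pyruvate to the mitochondrion unless pyruvate dehydrogenase kinases shut it off. Cartilage has no blood vessels, and its chondrocytes are known to draw much of their ATP from glycolysis and to store glycogen before they enlarge.

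Most of these genes had more signal in the A-CEBP sample. Levels are given as log2 of the processed signal minus the 75th percentile of the same array, so 0 is that percentile, and differences are A-CEBP minus GFP on the log2 scale. Of the 35 genes measured on both arrays, 33 differed upward (29 to 35 in other settings), against 58.9% of all 13860 genes measured on both. At the 2-fold rule, 4 genes were higher (Gbe1, Slc16a3, Pdk1 and Aldoc), against 1.25% of all genes, and 0 were lower, against 1.71% of all genes. The first count was 3 to 5 in the other settings at this rule, except for spike-in scaling, which gave 9 members against 2.58% of all genes. A further 8 were at least 1.5-fold higher, which makes 12 of 35 against 4.68% of all genes, and at the same size 0 were lower, against 3.82%. In either direction, 2.96% of all genes were 2-fold apart and 8.51% were 1.5-fold apart. The members' median difference was 0.54, and that of all genes was 0.04. Across 8 other scalings and backgrounds the members' median kept its sign and ran from 0.43 to 0.77.

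The scanner's error model put the error of a member's difference at 0.20 to 0.22, which covers the measurement only. Replicate spots of a probe gave an SD of 0.12 over 287 probes, and different probes of a gene gave an SD of 0.19 over 3601 genes. A difference within about 0.2 of 0 was therefore not told apart from measurement error. These widths are a single SD or a single scanner error, so a difference slightly beyond them is not thereby set apart from measurement error. The same holds for the combined errors of gene pairs given below. The small differences that changed sign with the processing were 6 (Eno2, Pdk4, Pdha1, Pfkfb2, Pfkfb3 and Pgm2), and none of these reached 0.3 in any setting.

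**Figure D1:**
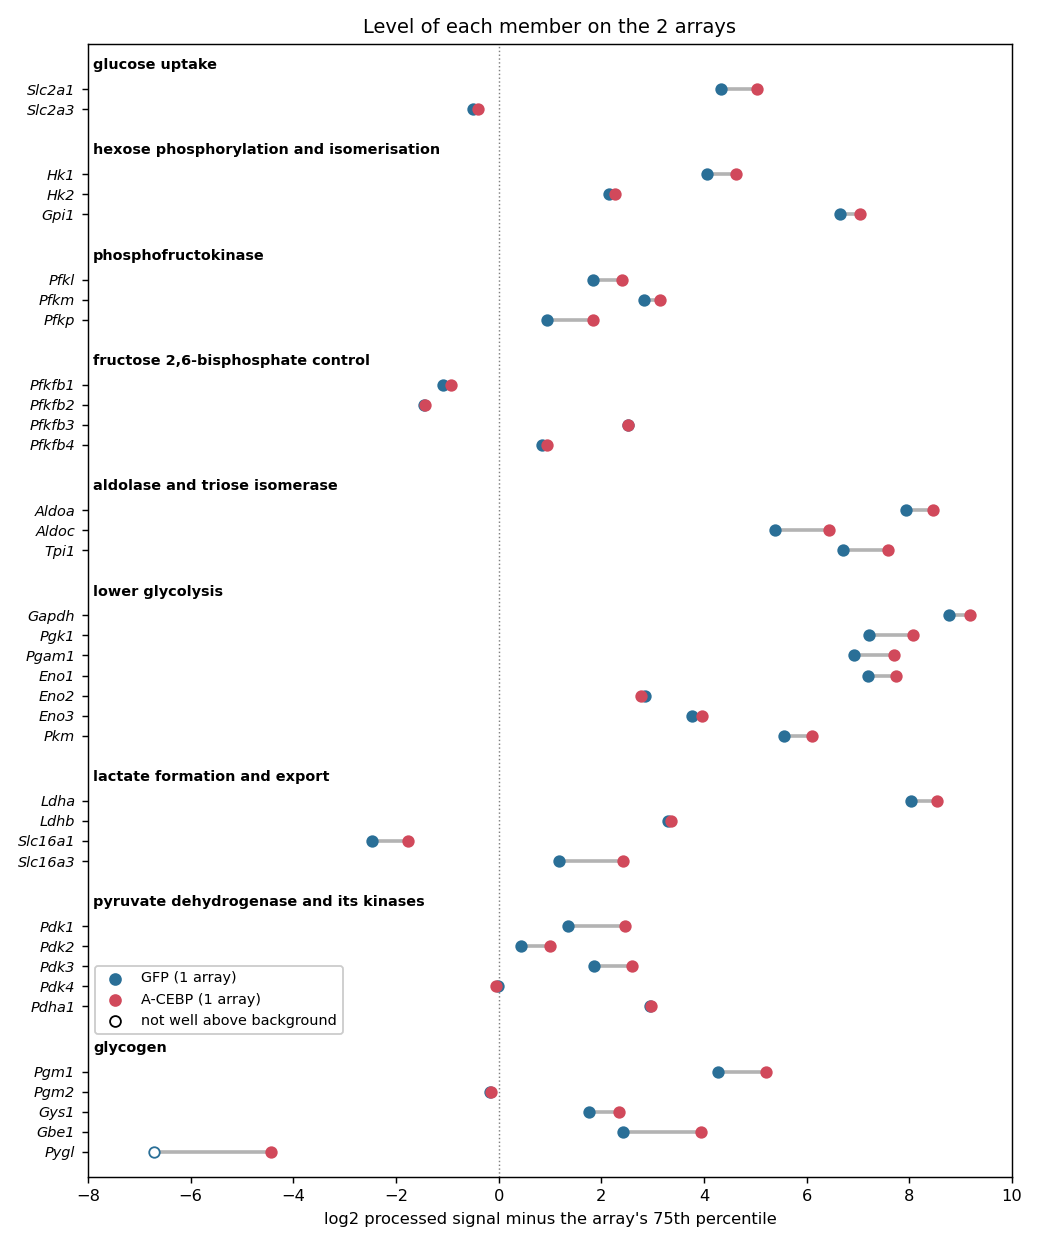
Level of each of the 36 genes on the GFP array (blue) and the A-CEBP array (red), as log2 processed signal minus the 75th percentile of the array, grouped by pathway step; open circles mark a probe not well above background. The red point lies to the right of the blue one for 33 of the 35 genes measured on both arrays, and the points of the Pfkfb genes, Pdha1, Pdk4 and Pgm2 nearly coincide.

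Glucose enters the cell through facilitative transporters. Slc2a1, which encodes GLUT1, the transporter found in most cell types, stood at 4.34 under GFP and 5.04 under A-CEBP, a difference of 0.70 or 1.63-fold. Slc2a3, encoding the high-affinity GLUT3, stood at -0.50 and -0.41, a difference of 0.09. The 2 transporters thus differed in how far apart the arrays were, by 0.61, against a combined measurement error of 0.29.

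Glucose is trapped by hexokinase. Hk1, the hexokinase of most tissues, read 4.07 and 4.62 (0.55 apart), and its second, dimmer probe was 0.28 apart. Hk2, the hexokinase known to be inducible, read 2.16 and 2.27, only 0.11 apart and within the error. Gpi1, whose product makes fructose 6-phosphate, read 6.66 and 7.04, and its 3 probes differed by 0.31 to 0.50. All 3 genes of this step lay within 1.5-fold.

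Phosphofructokinase sets the pace of the upper pathway, and all 3 of its subunit genes read higher in the A-CEBP sample, against 58.9% of all genes. Pfkp, the platelet-type subunit, read 0.95 and 1.84, a difference of 0.89, but its dimmer probe, at -2.84 and -2.63, differed by 0.21, so the size for this gene rests on the probe taken. Pfkl, the liver-type subunit, read 1.83 and 2.41 (0.58 apart). Pfkm, the muscle-type subunit, was printed in 10 spots, whose differences ran from 0.28 to 0.39 around a median of 0.32, with an SD of 0.04. Every one of those 10 spots was higher on the A-CEBP array.

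The bifunctional enzymes that make and remove fructose 2,6-bisphosphate, the strongest activator of phosphofructokinase, had differences within the measurement error of 0. Pfkfb3, the form with the highest kinase activity, read 2.51 and 2.52, and its 2 probes differed by 0.01 and 0.07. Pfkfb4 read 0.85 and 0.95, with its other probe not well above background on either array. Pfkfb1 and Pfkfb2 differed by 0.15 and 0.02. The 4 genes had a median difference of 0.06, which ran from 0.01 with the authors' deposited values to 0.29 with spike-in scaling, and all 4 lay inside the error of the main setting.

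The aldolase and triose isomerase genes had a median difference of 0.88. Aldoc, the brain-type aldolase, read 5.39 and 6.43, a difference of 1.04 or 2.06-fold that lay just past the 2-fold rule and fell under it with quantile scaling, cyclic loess and the authors' deposited values (lowest value 0.96). Aldoa, the aldolase of muscle and most other cells, read 7.94 and 8.47 (0.53 apart). Tpi1, which interconverts the triose phosphates, read 6.70 and 7.58, and its 2 probes differed by 0.87 and 0.88. The gap between Aldoc and Aldoa, 0.51, exceeded their combined error of 0.29.

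In lower glycolysis, 6 of 7 genes read higher in the A-CEBP sample, against 58.9% of all genes, with Eno3 (0.19) inside the measurement error. With spike-in scaling Eno2 read higher too (0.15). Pgk1, whose product makes the first ATP of the pathway, read 7.22 and 8.07, a difference of 0.85 or 1.80-fold. Pgam1, a phosphoglycerate mutase, read 6.92 and 7.71 (0.79 apart), and Pkm, pyruvate kinase, 5.56 and 6.10 (0.54 apart). Gapdh, often used as a reference gene, read 8.76 and 9.18 at its brightest probe, 0.42 apart. Its 7 probes all differed upward, from 0.42 to 0.85 with a median of 0.75, so the brightest probe gave the smallest value.

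The 3 enolase genes did not differ alike. Eno1, the enolase of most tissues, read 7.20 and 7.74 (0.54 apart). Eno3, the muscle enolase, read 3.76 and 3.95 (0.19 apart), and Eno2, the neuronal enolase, read 2.86 and 2.78 (-0.08). The difference of Eno2 minus that of Eno1 was -0.61, against a combined error of 0.29, while Eno2 was not told apart from 0. Probes of these abundant genes can also take up transcripts of near-identical copies, such as processed pseudogenes of Gapdh and the Eno1 copy Eno1b, which was not resolved.

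**Figure D2:**
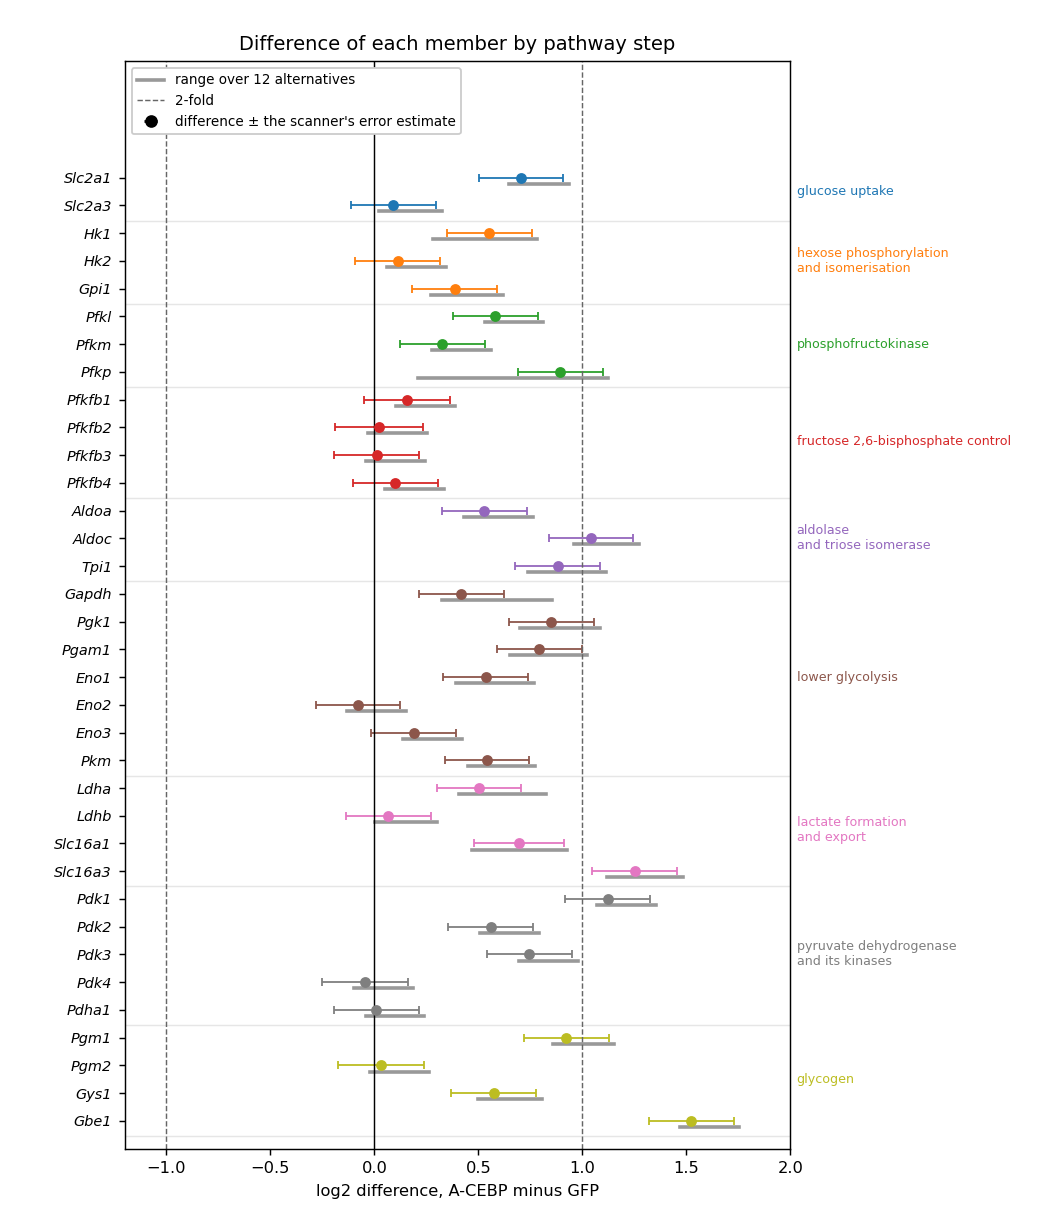
Difference of each of the 35 genes measured on both arrays, A-CEBP minus GFP on the log2 scale, with the scanner's error estimate as bars, and below each point a grey line for its range over 12 alternative settings; dashed lines mark 2-fold. Gbe1, Slc16a3 and Pdk1 stay past 2-fold over the whole range, whereas the 4 Pfkfb genes lie around 0.

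Among the genes of lactate formation and export, the exporter differed most. Slc16a3 encodes MCT4, the transporter that glycolytic cells use to release lactate, and read 1.17 under GFP and 2.42 under A-CEBP. That difference of 1.25, or 2.38-fold, compared with 1.12 for its second probe, and the gene stayed past 2-fold in every setting run (1.12 to 1.48). Slc16a1, encoding the widely expressed MCT1, read -2.46 and -1.77 (0.69 apart), and came down to 0.47 at the lowest with normexp background. Ldha, the subunit that favours lactate formation, read 8.04 and 8.54 at its brightest probe (0.50 apart), with its other 2 probes at 0.70 and 0.83. Ldhb, the subunit common in oxidative tissues, read 3.29 and 3.36, 0.07 apart. Ldha exceeded Ldhb in its difference by 0.44, against a combined error of 0.29.

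The pyruvate dehydrogenase kinases, which inactivate the pyruvate dehydrogenase complex by phosphorylation, differed by member. Pdk1 read 1.34 and 2.47, a difference of 1.12 or 2.18-fold that stayed between 1.07 and 1.35 in every setting run. Pdk3 read 1.86 and 2.60 (0.74 apart) and Pdk2 0.43 and 0.99 (0.56 apart). Pdk4, the kinase known for its induction by fasting and fatty acids, differed by -0.05, within the error. Pdha1, the catalytic subunit that these kinases act on, read 2.95 and 2.96 (0.01 apart). Of the 4 kinase genes, 3 read higher in the A-CEBP sample by more than the measurement error, and Pdha1 lay within that error of 0. Of all genes measured on both arrays, 58.9% differed upward by any amount. Pdk1, Pdk3 and Pdk2 lay above 99.2%, 97.2% and 94.8% of all genes, Pdk4 above 33.3% and Pdha1 above 42.7%.

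Glycogen genes held the largest difference among the members. Gbe1, the glycogen branching enzyme, read 2.42 and 3.94, a difference of 1.52 or 2.87-fold, above 99.8% of all genes measured on both arrays. Gys1, the glycogen synthase of muscle and most other tissues, read 1.76 and 2.34, and its 2 probes differed by 0.56 and 0.57. Pgm1, a phosphoglucomutase that links glycogen to glycolysis, read 4.28 and 5.20, a difference of 0.92 or 1.89-fold. Pgm2, a related enzyme, read -0.17 and -0.14 (0.03 apart), and the difference of Pgm2 minus that of Pgm1 was -0.89. Pygl, the liver-type glycogen phosphorylase, was at -4.44 in the A-CEBP sample but lacked the background mark under GFP. Set against the lowest GFP level well above background, it was 1.22-fold higher. That is not a strict minimum, since Trp53 lacked the mark on the GFP array at the higher level of -4.31.

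For 9 members, 2 or more probes were measured on both arrays, and these gave a check on single spots. The probes of each of the 9 genes all had the same sign, and the SD between probes of a member was 0.19, the same as for all genes with several probes. Tpi1 and Gys1 had probes within 0.01 of each other, and Pfkp had the widest gap, 0.68. Over all 51 member probes measured on both arrays, 49 differed upward. The 58.9% of all genes that differed upward is not a like share, since it counts each gene once, by its brightest probe. Probes of the same gene, such as the 7 of Gapdh, are not separate genes in the count of 51. Signal strength moved with the difference inside some of the genes: for Gapdh and Ldha the brightest probe gave the smallest difference, and for Pfkp and Hk1 the brighter probe gave the larger one. Its part in the sizes was not tested. Between genes, the 17 dimmer members had a median difference of 0.56 and the 18 brighter ones 0.53.

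**Figure D3:**
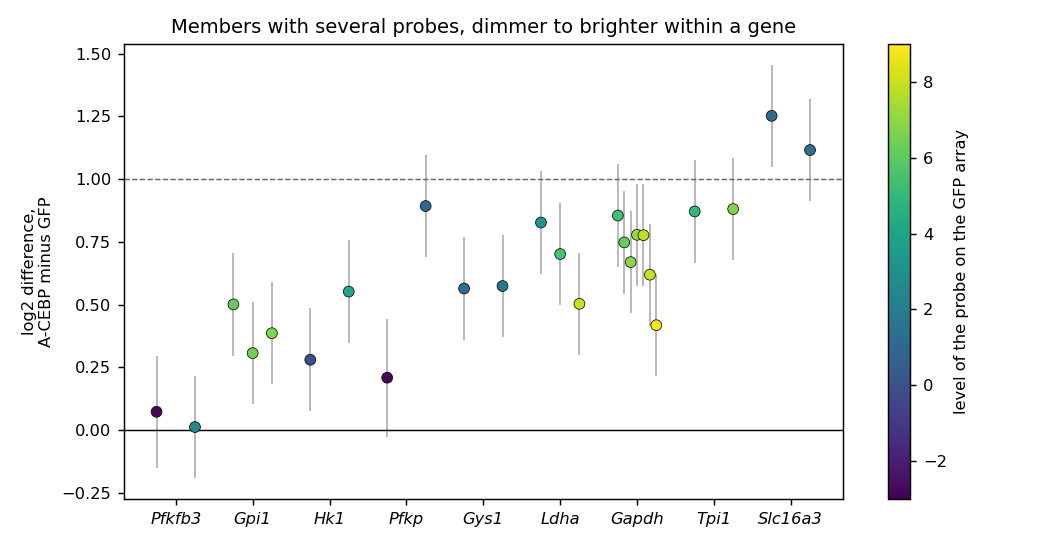
Differences of the single probes of the 9 members with several probes measured on both arrays, A-CEBP minus GFP on the log2 scale with the scanner's error estimate as bars, ordered from dim to bright within a gene and coloured by the level on the GFP array. Probes of Tpi1 and Gys1 coincide, the 7 Gapdh probes run from 0.42 to 0.85, and those of Pfkp lie at 0.21 and 0.89.

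**Figure D4:**
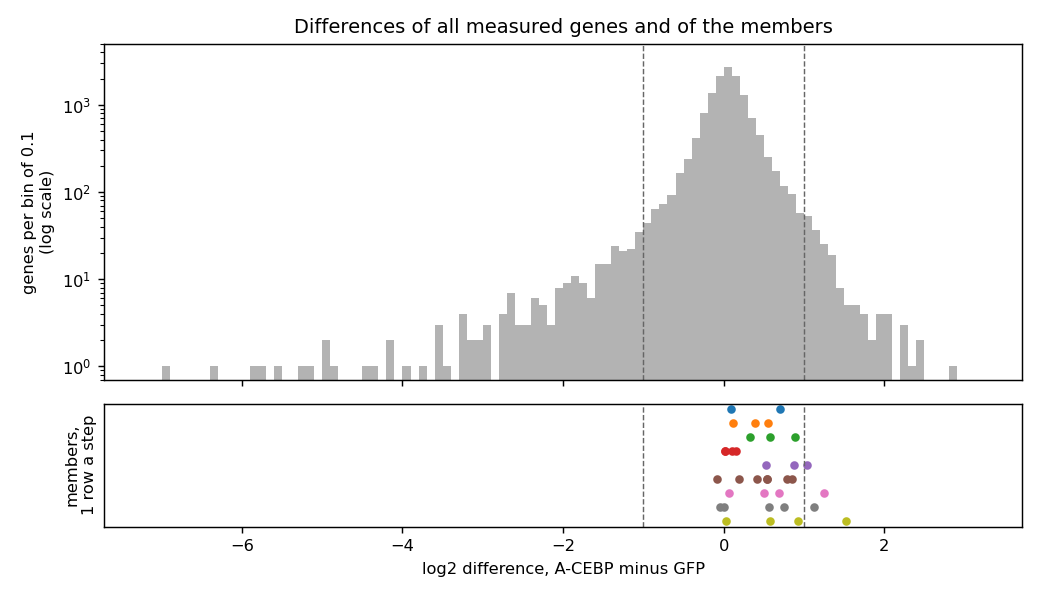
Histogram of the differences of all 13860 genes measured on both arrays, A-CEBP minus GFP on the log2 scale in bins of 0.1 with a logarithmic count axis, above the 35 members in 1 row per pathway step from glucose uptake at the top to glycogen at the bottom. The members lie between -0.08 and 1.52, on the right of the peak of all genes, and the dashed lines mark 2-fold.

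Other genes of carbohydrate use were described from 10 lists that did not enter the choice of members. These lists too were chosen with earlier results of these data known. Among the 5 other glucose transporters measured, Slc2a5, the fructose transporter GLUT5, was 2.17-fold higher in the A-CEBP sample (1.12), and Slc2a6 was lowest at -0.47. Of 10 further glycolytic enzymes and isoforms measured, 0 were 2-fold apart, with Pgam2, the muscle phosphoglycerate mutase, highest at 0.66. Their median of 0.14 turned to -0.08 with normexp background. In that list, 4 more carried the background mark on the A-CEBP array only, at levels of -5.04 to -4.60. Against the lowest GFP level that passed, Gapdhs was 1.09-fold and Hkdc1 1.04-fold higher, with no fold given for Ldhc and Eno4.

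Other monocarboxylate carriers and their chaperones had a median below 0, unlike Slc16a1 and Slc16a3. Of 7 genes measured, 6 read lower in the A-CEBP sample (4 with spike-in scaling), against 5691 of all 13860 genes in the main setting. Among those 6, Slc16a6 at -0.11 and Slc16a8 at -0.15 lay within their scanner errors of 0.26 and 0.33. Of the 7, 0 were 2-fold apart, and the median was -0.34 (between -0.39 and -0.11 in the 8 other scalings and backgrounds). Slc16a10, which carries aromatic amino acids, differed by -0.65. Bsg, which encodes basigin, the chaperone that brings MCT1 and MCT4 to the cell surface, was the exception, at 5.30 and 5.84 (0.54 apart). Emb, the related chaperone embigin, read -0.34.

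Glycogen genes beyond the members differed little as a list. Of 21 measured, 0 were 2-fold apart and the median was 0.09. Ppp1r3c, a scaffold that directs protein phosphatase to glycogen and so favours its synthesis, was the highest, at 2.53 and 3.46 (0.93 apart, or 1.90-fold). Gyg, which encodes glycogenin, the primer of glycogen, was the lowest at -0.23. The muscle and brain phosphorylase genes Pygm and Pygb differed by 0.04 and 0.14. Epm2a, which encodes the glycogen phosphatase laforin, was seen in the A-CEBP sample only. Its measured levels of -4.60 and -3.24 were 2.58-fold apart, with a scanner error of 0.38. Gys2, the liver glycogen synthase, was seen in the GFP sample only. It stood 3.06-fold above the lowest A-CEBP level that passed, and the scanner error of its difference was 1.46.

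Pathways that take carbon onward from pyruvate or aside from glycolysis lay near the median of all genes. The 9 measured genes of the pyruvate dehydrogenase complex, its phosphatases and the pyruvate carriers had a median of 0.07, and 0 were 2-fold apart, with the pyruvate carboxylase gene Pcx highest at 0.39. For the 18 genes of the citric acid cycle the median was 0.06, the range ran from -0.16 (Dlst) to 0.20 (Mdh1), and the median turned to -0.01 with quantile scaling. The 10 genes of the pentose phosphate pathway had a median of 0.05, between -0.09 (Rpia) and 0.35 (Prps2), and the median turned to -0.00 with the authors' deposited values. The 4 measured genes of gluconeogenesis had a median of 0.08, from -0.49 for G6pc to 0.22 for Fbp1. Of the genes in these 4 lists, 0 were 2-fold apart in either direction.

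**Figure D5:**
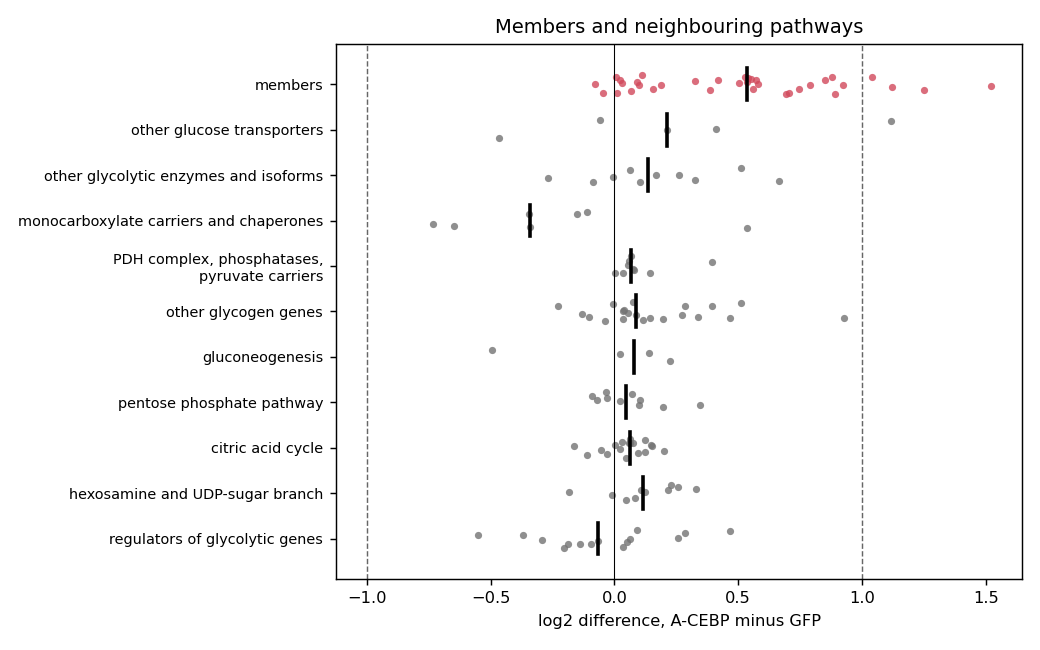
Differences of the 35 members (red) and of the measured genes of 10 neighbouring lists (grey), A-CEBP minus GFP on the log2 scale, with a black bar at the median of each list and dashed lines at 2-fold. The members' median is 0.54, those of the other lists lie between -0.34 and 0.21, and the medians of the further glycolytic enzymes, the pentose phosphate pathway, the citric acid cycle and the regulators change sign with another scaling or background.

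Transcription factors and sensors that are known to act on glycolytic genes stayed within 2-fold in their own RNA. Hif1a, the oxygen-regulated factor that activates many glycolytic genes and is controlled largely at the level of its protein, read 2.50 and 2.53 (0.03 apart). Epas1, encoding HIF-2 alpha, differed by 0.29, although its 3 probes disagreed in sign (lowest -0.20). Arnt, their shared partner, differed by -0.06 (-0.41 at its other probe). Myc read 2.17 and 1.87 (-0.29). Of 15 such genes measured, 0 were 2-fold apart, with Max, the partner of Myc, highest at 0.47 and Arrdc4, a glucose-responsive arrestin that lowers glucose uptake, lowest at -0.55 (-0.94 at its other probe). Their median of -0.06 turned to 0.17 with spike-in scaling.

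Promoters were examined because HIF binds to elements with an RCGTG core and because A-CEBP keeps C/EBP proteins off their sites. RefSeq promoter windows of the assembly GRCm38.p6, each of 300 bases from 250 before to 50 after a transcript start, were found for 35 of the 36 genes (54 windows, of which some from neighbouring starts overlap), and Slc2a3 had none. The letters ACGTG or GCGTG, on either strand, were in 40 of the 54 windows (74.1%) and in 43.8% of all 32851 windows. The letters TTGCNNAA, a C/EBP-like sequence, were in 3 of the 54 windows (5.56%) and in 10.8% of all windows, on either strand. Counted by gene, ACGTG or GCGTG was in 30 of 35 members (85.7%) and in 46.7% of all genes with a window. It was in 10 of 12 members that were at least 1.5-fold higher and in 19 of 22 of the other measured members. ACGTG alone was in 8 of 12 (66.7%) and 11 of 22, against 21.8% of all genes with a window. TTGCNNAA was in 0 of 12 and 3 of 22, against 12.2% of all genes with a window. The palindrome CACGTG holds ACGTG on both strands and was counted at 2 positions. These are matches of letters and not measured binding.

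Windows are printed from 5′ to 3′ along the gene for 7 genes: those of the 4 members past 2-fold, of Pgk1 and Ldha as core glycolytic genes, and of Pfkfb3 as a gene that hardly differed. Pdk1, Aldoc, Ldha and Pfkfb3 have 2 windows each, and the one with more matches is shown, so the printed windows do not represent the matches of all windows. Capitals mark ACGTG or GCGTG on the printed strand and CACGT or CACGC where the match is on the other strand.
Slc16a3 chr11:120948817-120949116 (+ strand): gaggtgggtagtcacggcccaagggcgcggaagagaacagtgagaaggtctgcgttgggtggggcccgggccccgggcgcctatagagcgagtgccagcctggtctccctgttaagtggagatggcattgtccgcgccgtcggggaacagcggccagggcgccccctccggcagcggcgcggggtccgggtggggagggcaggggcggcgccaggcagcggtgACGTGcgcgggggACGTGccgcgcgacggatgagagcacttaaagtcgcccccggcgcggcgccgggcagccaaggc
Pdk1 chr2:71872974-71873273 (+ strand): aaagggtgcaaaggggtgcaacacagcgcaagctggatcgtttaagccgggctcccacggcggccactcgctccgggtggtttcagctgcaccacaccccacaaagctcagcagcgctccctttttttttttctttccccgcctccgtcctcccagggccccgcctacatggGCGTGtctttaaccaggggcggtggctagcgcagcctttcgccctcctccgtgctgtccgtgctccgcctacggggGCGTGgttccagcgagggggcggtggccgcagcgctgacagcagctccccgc
Aldoc chr11:78322823-78323122 (+ strand): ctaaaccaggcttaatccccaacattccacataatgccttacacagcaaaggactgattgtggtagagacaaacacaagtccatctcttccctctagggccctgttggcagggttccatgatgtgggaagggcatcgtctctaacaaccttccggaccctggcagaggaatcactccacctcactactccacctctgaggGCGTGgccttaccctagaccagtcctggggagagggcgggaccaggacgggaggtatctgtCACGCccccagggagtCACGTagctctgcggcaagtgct
Gbe1 chr16:70313699-70313998 (+ strand): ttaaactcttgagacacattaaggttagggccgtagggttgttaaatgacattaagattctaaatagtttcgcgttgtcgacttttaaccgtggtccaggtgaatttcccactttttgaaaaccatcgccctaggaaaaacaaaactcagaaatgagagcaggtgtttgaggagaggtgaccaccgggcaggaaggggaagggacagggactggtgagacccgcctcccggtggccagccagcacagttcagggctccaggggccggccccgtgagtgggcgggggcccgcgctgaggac
Pgk1 chrX:106186850-106187149 (+ strand): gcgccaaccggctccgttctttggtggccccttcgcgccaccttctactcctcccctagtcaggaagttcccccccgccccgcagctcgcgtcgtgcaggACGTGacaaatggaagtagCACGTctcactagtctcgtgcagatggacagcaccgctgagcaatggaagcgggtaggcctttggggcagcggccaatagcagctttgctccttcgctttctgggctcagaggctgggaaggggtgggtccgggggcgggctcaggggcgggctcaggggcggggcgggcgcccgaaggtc
Ldha chr7:46845554-46845853 (+ strand): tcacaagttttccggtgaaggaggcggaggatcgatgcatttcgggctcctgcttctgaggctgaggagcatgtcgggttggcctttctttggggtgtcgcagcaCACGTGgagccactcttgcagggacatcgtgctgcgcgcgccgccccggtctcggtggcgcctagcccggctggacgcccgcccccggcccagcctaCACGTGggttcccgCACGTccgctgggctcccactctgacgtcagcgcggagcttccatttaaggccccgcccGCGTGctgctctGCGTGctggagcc
Pfkfb3 chr2:11502041-11502340 (- strand): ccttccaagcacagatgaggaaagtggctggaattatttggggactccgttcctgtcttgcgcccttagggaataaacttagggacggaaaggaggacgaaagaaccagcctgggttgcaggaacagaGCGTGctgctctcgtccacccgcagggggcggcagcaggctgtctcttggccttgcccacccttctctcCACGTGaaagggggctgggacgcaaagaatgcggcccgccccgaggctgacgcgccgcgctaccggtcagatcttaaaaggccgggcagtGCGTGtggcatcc

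Slc16a3 held ACGTG at positions -27 and -14, counted from the transcript start. Pdk1 held GCGTG at -78 and -2 in the window shown and no match in its other one. Aldoc held 1 ACGTG and 2 GCGTG in the window shown. Gbe1, the member with the largest difference, held neither sequence within its window. In the windows shown, Ldha held 5 positions of ACGTG and 2 of GCGTG, Pgk1 held 2 of ACGTG, and Pfkfb3, which was 0.01 apart, held 2 of each. The windows not shown held 2 GCGTG for Ldha, 1 ACGTG for Pfkfb3 and 1 GCGTG for Aldoc.

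The labelled cell type was checked against its markers. Of 16 chondrocyte markers, 14 were well above background on both arrays, among them Col2a1 at 8.23 and 8.66, Acan at 2.10 and 3.39 and Sox9 at 1.69 and 2.30. The 2 that read lower in the A-CEBP sample were Comp, at 4.44 and 4.40, and Sox5, at 4.95 and 4.89. Both differences (-0.04 and -0.06) lay within the scanner's error. Col9a3 was seen in the A-CEBP sample only, and Matn3 in neither. Of the 14 markers measured on both arrays, 12 read higher in the A-CEBP sample, against 58.9% of all genes, and the median was 0.62. At the 2-fold rule 4 were higher, against 1.25% of all genes: Hapln1 by 1.42, Snorc by 1.37, Acan by 1.30 and Cnmd by 1.02. Cnmd fell under 2-fold in 4 of 8 other scalings and backgrounds (lowest 0.86). The summed signal of the 16 markers was 411 times the 75th percentile of the GFP array and 580 times that of the A-CEBP array. A larger share of chondrocytes and more RNA per cell cannot be told apart in such bulk samples, and the part of this in the glycolytic differences was not tested.

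Several members are muscle or brain isoforms, so markers of those cells are given beside them. Of 15 skeletal muscle markers, 5 were measured on both arrays, with a median of 0.79, while the defining genes Myod1, Myog, Ckm, Myh1 and Myh4 were not well above background on either array. The summed signal of these markers was 1.36 and 2.36 times the 75th percentile of its array. Mb was the highest in its difference (2.86, from -4.01 and -1.15) and Des the lowest (-0.06). Myf6 was seen in the GFP sample only, at 2.92-fold above the lowest A-CEBP level that passed. Of 7 neuronal markers 3 were measured, with differences of 0.90 for Map2 (0.42 with normexp background), 0.42 for Snap25 and -0.12 for Tubb3, and Rbfox3, Syt1, Nefl and Nefm were not well above background. Leukocyte markers had a median of -0.14 over 5 of 9 with a probe, which turned to 0.09 with spike-in scaling. The brightest was Itgam, at 4.44 and 4.67 (-0.57 apart at its other probe). Differences ran from -0.84 for Cd14 to 0.38 for Laptm5. The summed signal of these markers was 24.7 and 27.8 times the 75th percentile of its array. Ptprc, Adgre1, Cd52 and Tyrobp were not well above background. No erythroid marker of 4 was well above background on either array, nor were the defining endothelial gene Cdh5 and the hepatocyte gene Alb. The 2 endothelial markers measured were Kdr, at 2.89 and 2.98 (-0.39 apart at its other probe), and Pecam1, at -3.09 and -3.29. Their median of -0.05 turned to 0.18 with spike-in scaling. The 1 hepatocyte marker measured differed by -0.49.

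The arrays were of similar quality. Of the non-control spots, 54.6% on the GFP array and 58.0% on the A-CEBP array were well above background, 0 were saturated, and the 75th percentile of the signal was 868 and 902 units. The file headers place both arrays on slide 1 and in scan 1 alike. How many arrays there are sets the limit on precision.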

How the data were processed

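RNA of 2 ATDC5 lines was labelled with Cy3, per the labels, and each was read on a 1-colour Agilent array. The scanner files that the authors deposited hold spot intensity, background-subtracted and detrended within the array by Agilent Feature Extraction 10.10.1.1, per the file headers and the submitters' processing notes, with no scaling between arrays. The scanner's 0 or 1 marks for background and outliers (other values) were used as the authors deposited them. The authors' deposited series table holds intensity on a linear scale, equal to each array's processed signal times a constant (1.24 for GFP and 1.15 for A-CEBP), with column medians of 70.9 and 67.4. It is not centred, and the sources used here do not say how the constants were set.

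From these values, log2 of the processed signal minus the 75th percentile of the array was computed. Control spots and 293 outlier spots were left out, replicate spots were averaged, and a probe counted as well above background when over 50% of its spots did. A gene was read from the brightest of its probes that passed on both arrays. Names came from RefSeq transcripts of GRCm38.p6, while the array design is on mm9, so no array coordinates are given. A gene seen on 1 array got a fold against a stand-in level for the other array. The stand-in was the lowest level that passed there, -4.72 for GFP and -5.19 for A-CEBP, or the gene's own level if higher. Such a fold is not a strict minimum. The 2-fold rule has no test behind it. Every member was named; from each other list, genes 2-fold apart or else the highest and lowest were named, and further genes were picked with their values in view. Some genes of these lists are not reported here. The members, lists and rules were chosen with earlier results of these data known. The steps were tested on simulated data. Python 3.11.15, R 4.3.3 and limma 3.58.1 were used.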

Additional observations from a re-analysis of the deposited data

How the results depend on the processing

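No paired analysis was possible because each group has 1 sample, and no sample could be left out. Of 12 alternatives, the count of members at least 2-fold higher changed most with scaling on the spike-in spots, to 9 in place of 4, and the members' median to 0.77. With it the all-gene median went from 0.04 to 0.28, and it turned the split of all genes past 2-fold from 173 higher and 237 lower to 358 higher and 171 lower, and the cause was not tested. With a 1.5-fold rule in place of 2-fold the count was 12. With ACGTG alone, 24 of 54 member windows held the hypoxia element core in place of 40, since GCGTG was then not counted. Of all windows, 19.6% held ACGTG and 43.8% held either sequence. In the other alternatives the count was 3 to 5 and the median 0.43 to 0.59, and the count of members at least 2-fold lower was 0 in all of them. Of 420 single values of members, 378 moved by less than the scanner's error and 42 by more. No member past 2-fold changed sign, while Eno2, Pdk4, Pdha1, Pfkfb2, Pfkfb3 and Pgm2, all near 0, did in at least 1 alternative. Normexp background used the median spot signal and offset 50, because the files hold no mean spot signal. An identity of protein isoforms was planned and not run. The values rest on 1 array per group, and dim probes such as those of Slc16a1 and Pygl are the least certain.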

Other observations

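The branch of glucose metabolism that supplies sugars for cartilage glycans lay close to the median of all genes. Of 10 measured genes that make UDP-sugars and hexosamines, 8 read higher in the A-CEBP sample, against 58.9% of all genes. In either direction 0 were 2-fold apart, and the median was 0.11 (0.06 with cyclic loess and 0.35 with spike-in scaling). Ugdh, which makes the UDP-glucuronate that glycosaminoglycan chains are built from, was the highest, at 4.48 and 4.81 (0.33 apart). Gfpt1, the entry enzyme of the hexosamine branch, differed by 0.23 at its brighter probe and -0.02 at the other, and Gfpt2 by -0.01, and Pmm2, a phosphomannomutase, was the lowest at -0.18. Among adipocyte markers the signs differed: Fabp4 read 1.78 and -0.13 (-1.92), while Pparg differed by 0.31 and Lpl by -0.14.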
